A study of Mus musculus with 20 samples.

Results

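The replication-dependent histone genes were described in mouse blastocysts that had received a let-7f-5p mimic as zygotes. They were taken by name, as every listed gene whose symbol starts with H2ac, H2bc, H3c or H4c followed by a digit, or is H1f1 to H1f6. The rule found 56 of 16014 named genes: 6 linker histone H1 genes, 15 H2A, 13 H2B, 12 H3 and 10 H4 genes. Each of the 20 libraries came from 1 pool of 10 blastocysts, grown in KSOM medium from microinjected wild-type (WT) zygotes of the strain labelled F1 C57BL/6Jx129S1/SvlmJ. The vehicle group (n = 7) received nuclease-free water, the Str let-7f group (n = 8) the mimic at a stress-relevant concentration, and the 2x Str let-7f group (n = 5) the mimic at the doubled concentration. No group received an unrelated mimic. RNA was total RNA depleted of ribosomal RNA, so transcripts without a poly(A) tail could be counted. The mimic, with the bases that pair with targets (2 to 8, the seed) in capitals, was:
let-7f-5p mimic: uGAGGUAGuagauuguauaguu

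Histones are the proteins around which DNA is wound. H2A, H2B, H3 and H4 form the core of the nucleosome, and H1 binds the linker DNA between nucleosomes. The replication-dependent genes lie in clusters, have no introns in most cases, and are transcribed mainly in S phase, when new DNA has to be packed. Their mRNAs end in a short stem-loop in place of a poly(A) tail, which is bound by the stem-loop binding protein SLBP.

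Of the 56 genes, 53 matched RefSeq genes of the GRCm38.p6 assembly by symbol, 44 on chromosome 13 and 9 on chromosome 3, while H2ac25, H2bc24 and H4c16 had no match. A 3′ untranslated region was annotated for 45, and 39 of those held the 16-base histone stem-loop. In the last 100 bases of any protein-coding transcript, the stem-loop was found for 35.8% of 53 histone genes and for 0.119% of all 21901 protein-coding genes of GENCODE M21. The stem-loops of 1 gene of each class that the results turn on are shown with 5 bases on each side, the stem-loop in capitals:
H1f2: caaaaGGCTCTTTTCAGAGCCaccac
H2ac18: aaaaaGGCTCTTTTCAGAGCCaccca
H2bc12: ccaaaGGCTCTTTTAAGAGCCactaa
H3c2: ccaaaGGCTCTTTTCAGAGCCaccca
H4c8: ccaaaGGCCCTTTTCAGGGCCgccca
The form in H1f2, H2ac18 and H3c2 was the commonest, in 22 genes, and no H4 gene carried it. The 7-base let-7 site CTACCTC, the complement of the seed, was found in the annotated 3′ untranslated region of 1 gene, H4c4, and in the last 100 bases of 1.32% of all protein-coding genes and of 0 of 53 histone genes. The level of H4c4 was 17.3 ± 7.23 normalized counts (SD) in vehicle, 24.4 ± 17.8 in Str let-7f and 26.1 ± 14.7 at 2x Str let-7f, and the groups overlapped.

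Many of these genes are near copies of one another, and the counting tool divides reads among transcripts that share sequence. The closest relative of a gene in its class was on median 98.7% identical over the coding sequence in H2A, 98.2% in H2B, 98.9% in H3 and 96.5% in H4. Of all 31-base words in the coding sequence of H2ac7 and of H2bc4, 0% were found in no other member. The share was 4.56% for H2bc12 and 4.20% for H2ac12. For H1 genes the median share of such private words was 83.9%, against 13.5% for H2A, 20.5% for H2B, 9.58% for H3 and 24.8% for H4. Levels of single core histone genes are therefore uncertain, and sums by class are given beside them.

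Depth ran from 1.54 to 58.8 M reads per library, and 15 of 20 libraries had over 5 M. A count of 3 reads was worth 0.481 to 19.0 normalized counts in single libraries, so genes averaging under 100 normalized counts were measured with a few reads in the shallow ones; such floors cover counting error only. Vehicle replicate 5 stood apart from the other vehicle pools. Its summed histone level was 77382 normalized counts, against 57410 in the next highest vehicle pool, and 39 of 56 members (69.6%) had their highest vehicle level there, against 9.84% of all genes tested. Lars2, a mitochondrial leucyl-tRNA synthetase gene, took 5.39% of its reads, against 0.471% to 2.11% in the other 19 libraries; its part in the histone values was not tested. Class sums, ratios and counts of members are given with and without it, and so are single genes where leaving it out turned the direction, changed a call or moved the value by over 1.5 times.

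In vehicle blastocysts the 56 genes together held 0.593% ± 0.0837 (SD, n = 7) of a library. The share was 0.778% in vehicle replicate 5 and 0.530% to 0.592% in the other vehicle pools. Per 1 kb of coding length, H2A made up 45.6% of the summed histone level of all 7 vehicle pools, H1 26.3%, H3 17.9%, H2B 8.69% and H4 1.54%. The measured level of H4 was thus below that of the other core classes in every group. The summed level in vehicle pools was 21651 ± 2200 normalized counts (SD, n = 7) for H1, 22532 ± 4112 for H2A, 4169 ± 843 for H2B, 9236 ± 1585 for H3 and 604 ± 216 for H4. Without vehicle replicate 5 these means were 20861, 21065, 3858, 8675 and 534.

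A few genes supplied most of each class. H1f2 and H1f3, linker histones of somatic cells, held 34.3% and 28.0% of the summed H1 level over all 20 libraries, and H1f6, the linker histone of spermatocytes, held 0.814%. Within H2A, H2ac7 held 36.2% and H2ac18 33.8%, so that 2 of 15 genes carried most of the class. H2bc6 held 25.5% of H2B, H3c2 20.6% of H3 and H4c8 25.3% of H4. Over all members, 12 averaged at least 1000 normalized counts and 15 averaged under 100. The spread between vehicle pools followed the level: the median coefficient of variation was 19.6% for the 12 high genes, 29.2% for those between, and 66.3% for the 15 low ones.

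**Figure D1:**
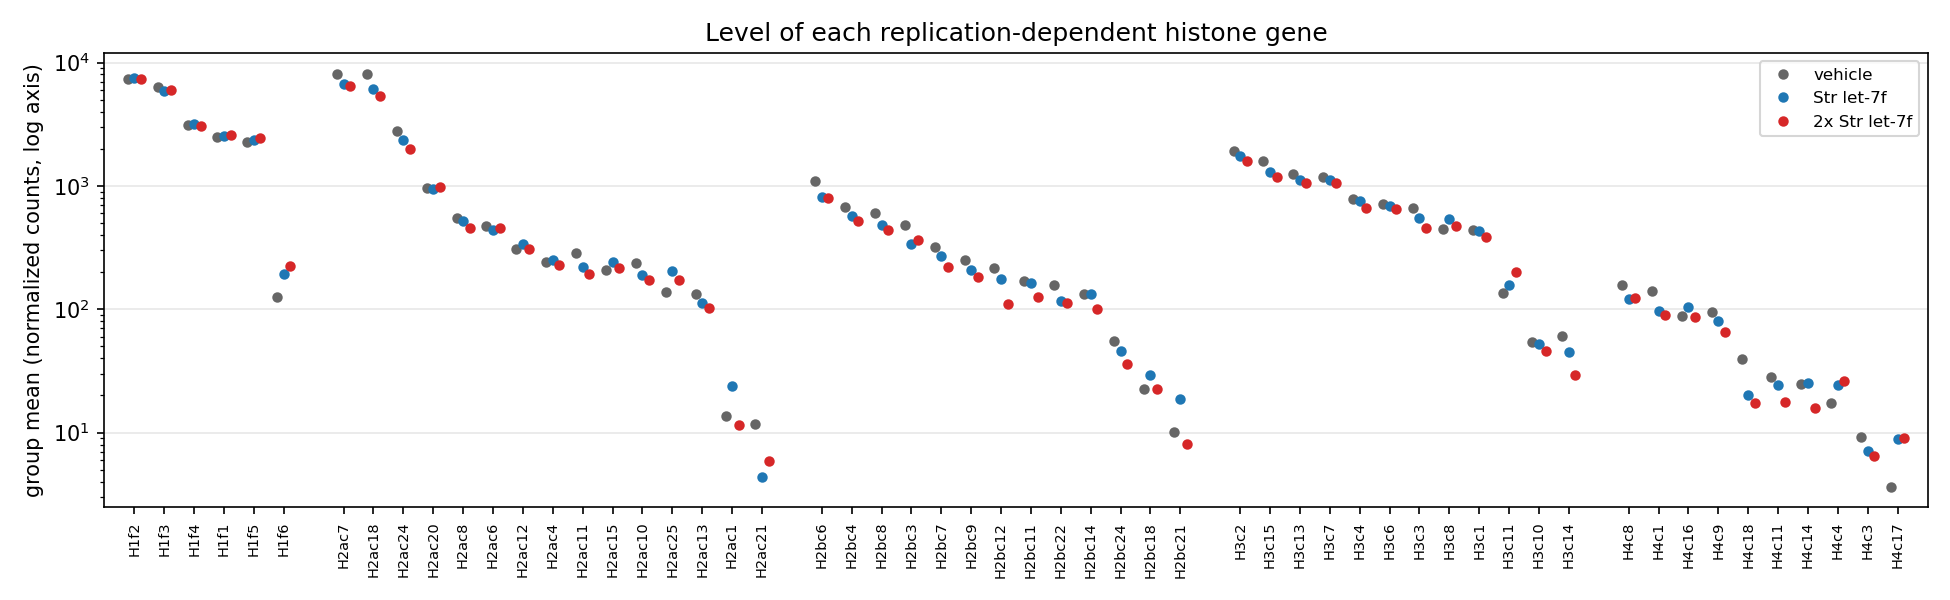
Mean level of each of the 56 replication-dependent histone genes in each group, in normalized counts on a log axis, ordered by class and by falling mean over all libraries. Points are group means over 7 vehicle, 8 Str let-7f and 5 2x Str let-7f pools; H1f2, H1f3, H2ac7 and H2ac18 are the 4 highest genes, averaging 6071 to 7430 over all libraries.

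The summed level of H1 overlapped between all 3 groups. H2A and H2B were lower in every 2x Str let-7f pool than in any vehicle pool, while Str let-7f pools overlapped vehicle in part. H3 and H4 were also lower on average in both mimic groups, with overlap. Sums over members carry no test here and are given as descriptions; fewer cells of a type and less RNA per cell cannot be told apart in pooled embryos. The summed H1 level was 19849 at the lowest, 20927 at the median and 26389 at the highest in vehicle pools, 19269, 21080 and 27291 in Str let-7f pools, and 21775, 22192, 19645, 21779 and 22956 in the 5 2x Str let-7f pools. The groups overlapped, and the difference in mean log2 level from vehicle was 0.00 ± 0.08 (SE) for Str let-7f and 0.01 ± 0.06 for 2x Str let-7f, and 0.05 in both without vehicle replicate 5.

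The summed H2A level ran from 19451 through a median of 21830 to 31330 normalized counts in vehicle and from 13348 through 18028 to 23359 in Str let-7f pools. In the 5 2x Str let-7f pools it was 18957, 18959, 12524, 16372 and 18682. All 5 2x Str let-7f pools and 5 of 8 Str let-7f pools were below every vehicle pool. On the log2 scale the difference from vehicle was -0.28 ± 0.13 (SE) for Str let-7f and -0.40 ± 0.15 for 2x Str let-7f, and without vehicle replicate 5 it was -0.20 and -0.32. The 2 mimic groups differed by -0.12 ± 0.15, within the spread of pools.

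H2B, the partner of H2A in the nucleosome dimer, behaved like it. Its summed level was 3533 at the lowest, 3837 at the median and 6035 at the highest in vehicle and 2533, 3328 and 4356 in Str let-7f pools. In 2x Str let-7f pools it was 2880, 3395, 2409, 3321 and 3172. All 5 of these pools, and 4 of 8 Str let-7f pools, were below every vehicle pool. The log2 difference from vehicle was -0.31 ± 0.15 (SE) for Str let-7f and -0.45 ± 0.13 for 2x Str let-7f, or -0.22 and -0.36 without vehicle replicate 5.

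H3 and H4, which form the tetramer at the centre of the nucleosome, overlapped between groups. The summed H3 level was 8037 to 12603 in vehicle (median 8753), 6460 to 10745 in Str let-7f (median 8372) and 6490 to 9066 at 2x Str let-7f (median 7694), and 3 of 8 and 3 of 5 mimic pools lay below every vehicle pool. The log2 difference was -0.12 ± 0.12 (SE) and -0.24 ± 0.12, and -0.05 and -0.16 without vehicle replicate 5. The summed H4 level differed from vehicle by -0.22 ± 0.23 for Str let-7f and -0.35 ± 0.20 for 2x Str let-7f, or -0.08 and -0.21 without that pool. In H4, 0 of 8 and 1 of 5 mimic pools lay below every vehicle pool.

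**Figure D2:**
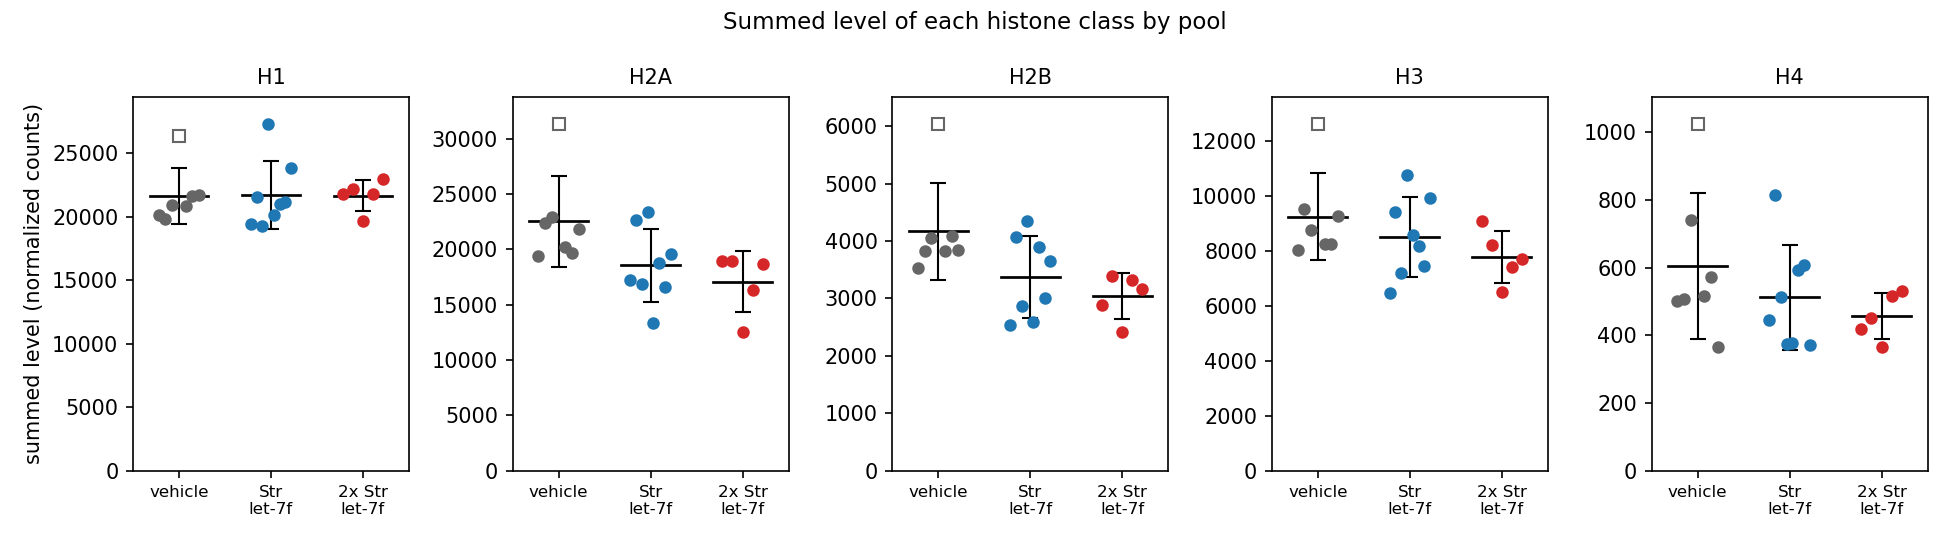
Summed level of each histone class in normalized counts, 1 point per pool, with the group mean (line) and SD (bars); the open square is vehicle replicate 5. The 5 2x Str let-7f pools lie below every vehicle pool for H2A and H2B, while H1 overlaps.

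The ratio of H1 to H2A was higher in mimic pools than in vehicle pools. It is taken within a library, so it does not depend on how libraries are scaled. It was 0.842 to 1.10 in vehicle pools (median 0.995), 0.952 to 1.51 in Str let-7f pools (median 1.15), and 1.15, 1.17, 1.57, 1.33 and 1.23 in the 5 2x Str let-7f pools. Of 8 Str let-7f pools 7, and of 5 2x Str let-7f pools 5, were above every vehicle pool. The ratio averaged 0.973 ± 0.0938 (SD) in vehicle, 1.19 ± 0.159 in Str let-7f and 1.29 ± 0.171 at 2x Str let-7f, and the vehicle mean was 0.995 ± 0.0812 without replicate 5.

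The ratio of H1 to H2B was 5.27 ± 0.449 in vehicle, 6.59 ± 0.929 in Str let-7f and 7.21 ± 0.688 at 2x Str let-7f, with 6 of 8 and 5 of 5 mimic pools above every vehicle pool, and 5.41 ± 0.236 in vehicle without replicate 5. The ratio of H1 to H3 was 2.37 ± 0.212, 2.58 ± 0.247 and 2.81 ± 0.26, with 3 of 8 and 4 of 5 mimic pools above every vehicle pool, and 2.41 ± 0.19 in vehicle without replicate 5. The ratio of H3 to H2A was 0.411 ± 0.0154 in vehicle, 0.463 ± 0.0816 in Str let-7f and 0.459 ± 0.0412 at 2x Str let-7f. In this ratio of 2 core classes, 5 of 8 and 4 of 5 mimic pools were above every vehicle pool, and 1 Str let-7f pool was below. The vehicle mean was 0.412 ± 0.0164 without replicate 5. The ratio of H2B to H2A was 0.185 ± 0.0126 in vehicle, 0.181 ± 0.0179 in Str let-7f and 0.179 ± 0.0198 at 2x Str let-7f, and the groups overlapped. Without replicate 5 it was 0.184 ± 0.0133 in vehicle.

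**Figure D3:**
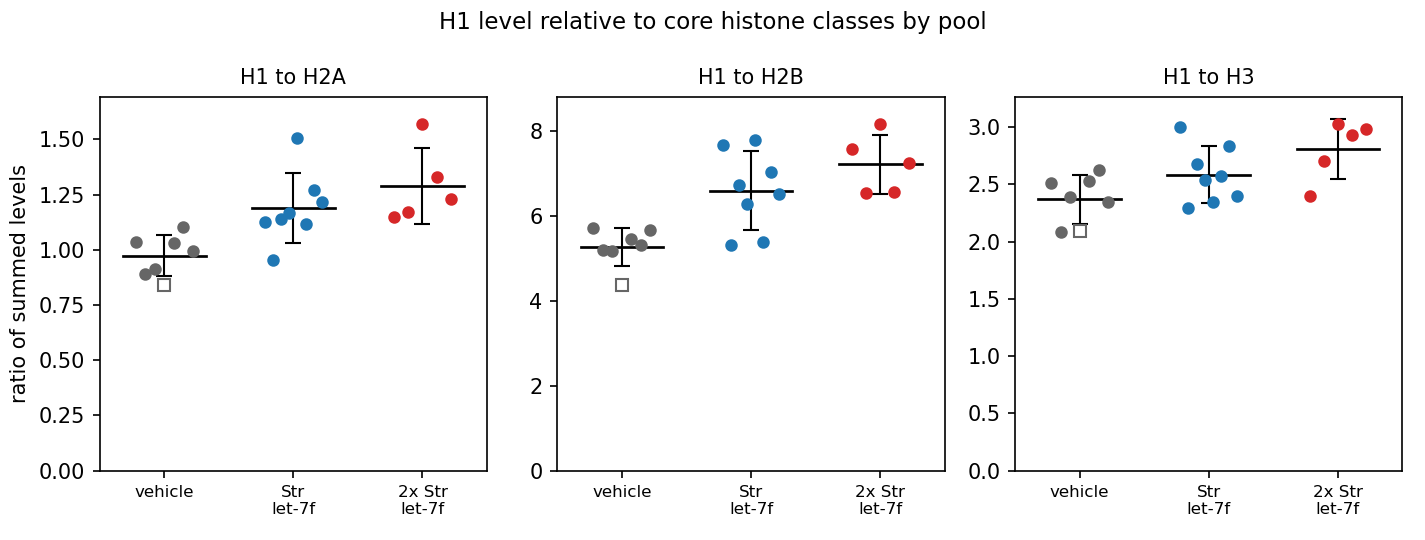
Ratio of the summed H1 level to the summed H2A, H2B and H3 level, 1 point per pool, with the group mean (line) and SD (bars); the open square is vehicle replicate 5. The 2x Str let-7f pools run from 1.15 to 1.57 for H1 to H2A, above the highest vehicle pool at 1.10.

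Single genes were tested with limma on log2(normalized count + 1) over all 15068 genes that passed the filter on low values, which all 56 histone genes did; fold changes understate changes of low genes. For Str let-7f against vehicle, 0 of 56 histone genes passed the Benjamini-Hochberg threshold of 0.05, beside 2.63% of all genes tested (1.84% higher and 0.796% lower), and edgeR and DESeq2 on recovered reads called 0 too. At an unadjusted p under 0.05 there were 6 (4 lower and 2 higher), beside 14.9% of all genes (6.78% lower and 8.15% higher). For 2x Str let-7f against vehicle 1 of 56 passed, H2bc12, which was lower, beside 1.89% of all genes (0.664% lower and 1.23% higher), and 10 (9 lower and 1 higher) had an unadjusted p under 0.05, beside 12.9% (5.81% lower and 7.07% higher). Between both mimic groups 0 histone genes passed with limma, edgeR or DESeq2, beside 0.0% of all genes by limma, and 1 (H2bc12) had an unadjusted p under 0.05, beside 4.04% (1.94% lower and 2.1% higher). The share past the adjusted threshold was thus near the background in each comparison. The 9 lower genes at an unadjusted p under 0.05 for 2x Str let-7f were a larger share of the 56 than 5.81%. They include near copies that share reads. In either direction there were 10 of 56, and 6 of 55 without vehicle replicate 5, beside 12.9% of all genes with all libraries. The lower genes alone were not counted without that pool, so it is not shown that the excess holds without it.

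Fold changes of the members lay mostly below 0. They were below 0 for 36 of 56 genes in Str let-7f and 41 of 56 at 2x Str let-7f, against 51.8% and 50.7% of all genes. Their median was -0.09 and -0.33 on the log2 scale, against -0.02 and -0.01 over all genes. Both values leaned on vehicle replicate 5: without it, 28 of 55 and 36 of 55 were below 0, with medians of -0.01 and -0.17. Among the 7 core histone genes averaging at least 1000 normalized counts, 7 were below 0 in both comparisons, with medians of -0.24 and -0.33, and 6 in both without vehicle replicate 5, with medians of -0.17 and -0.24. No member had all pools of a mimic group below, or above, every vehicle pool, as 0.232% and 0.617% of all genes did for Str let-7f and 0.889% and 1.36% for 2x Str let-7f.

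**Figure D4:**
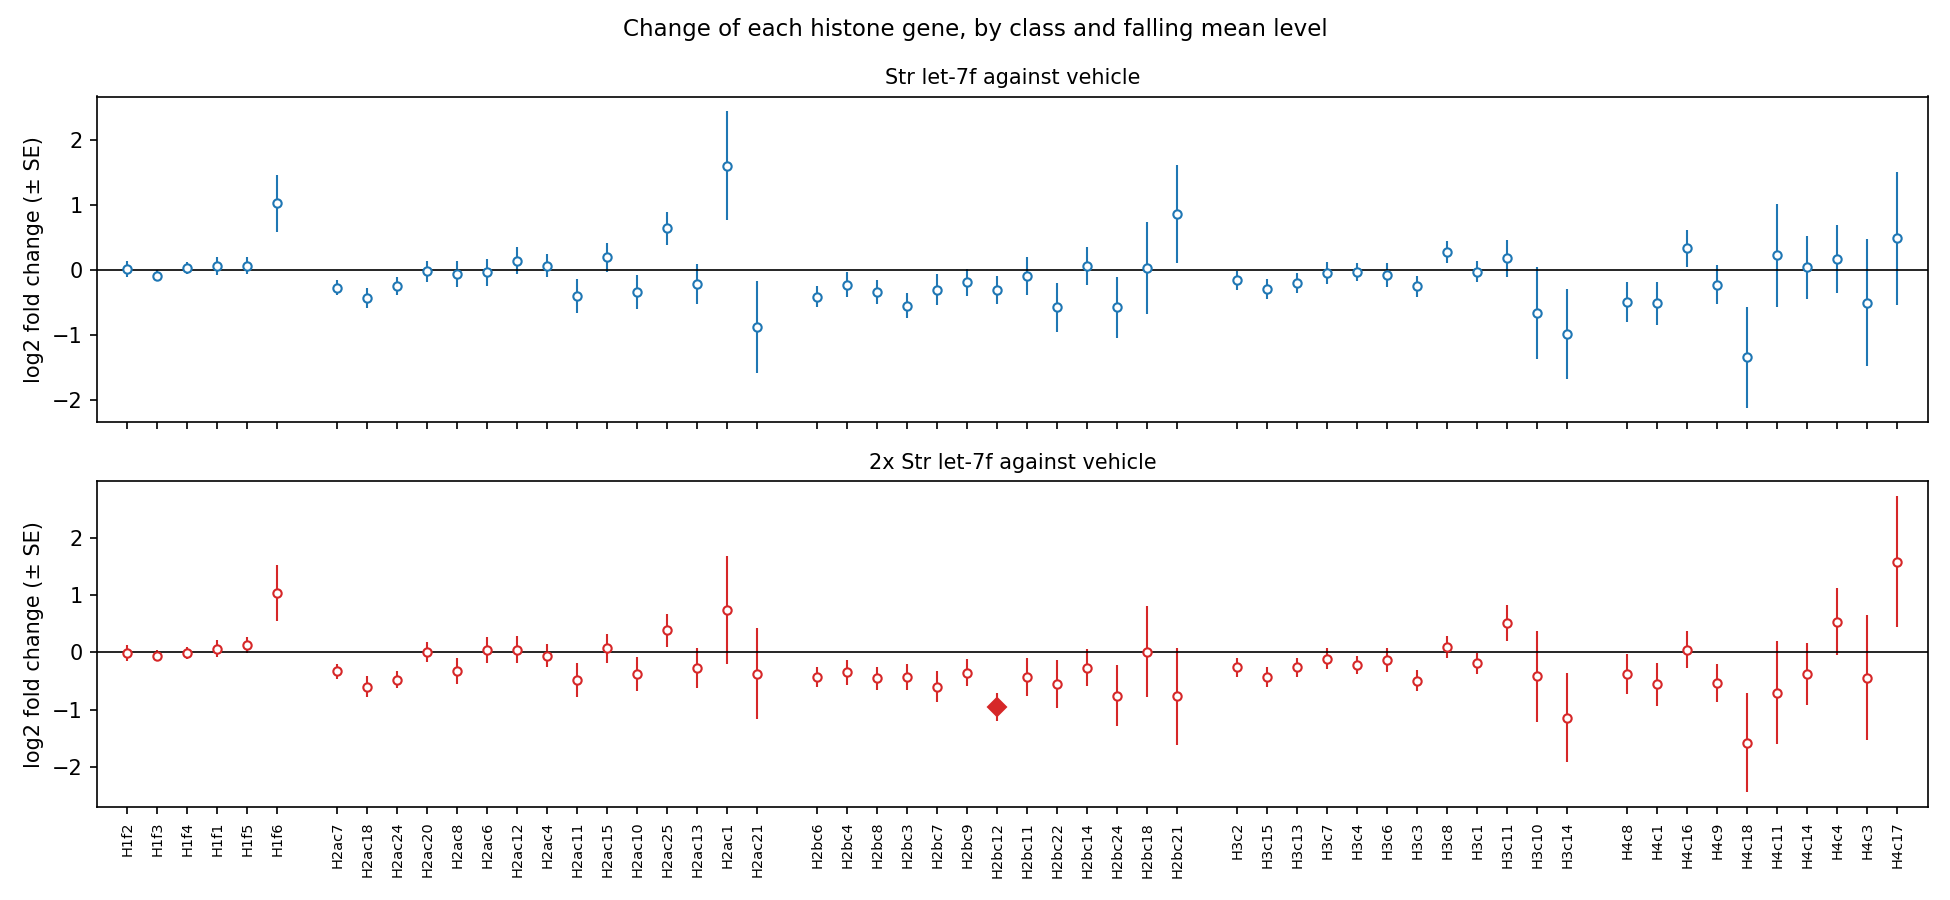
Log2 fold change against vehicle (± SE, limma) of each of the 56 histone genes, by class and by falling mean level, for Str let-7f (top) and 2x Str let-7f (bottom). The filled diamond is H2bc12, the 1 gene past the adjusted threshold; H1 genes other than H1f6 lie near 0.

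Among the H1 genes, the 5 other than H1f6 had log2 fold changes of -0.09 to 0.13 in both comparisons, and of -0.03 to 0.13 and -0.00 to 0.19 without vehicle replicate 5. H1f2 was 6458, 7058 and 8544 normalized counts at the lowest, median and highest in vehicle, 6125, 7024 and 10972 in Str let-7f, and 8558, 7626, 5756, 6239 and 8573 in 2x Str let-7f pools. The groups overlapped, and the log2 fold change was 0.01 ± 0.12 (SE) and -0.01 ± 0.14. H1f3 differed by -0.09 ± 0.08 and -0.06 ± 0.10, and H1f4 by 0.03 ± 0.09 and -0.02 ± 0.11. Without vehicle replicate 5 the values were 0.04 and 0.01 for H1f2, -0.03 and -0.00 for H1f3, and 0.07 and 0.03 for H1f4. H1f6, the spermatocyte form, was 33.3 at the lowest, 59.3 at the median and 345 at the highest in vehicle, 114, 189 and 251 in Str let-7f, and 64.0, 278, 127, 398 and 255 in 2x Str let-7f pools. The groups overlapped. Its fold change of 1.02 ± 0.44 and 1.04 ± 0.49 did not pass (limma adjusted p = 0.257 and 0.375).

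In H2A the highest genes had fold changes below 0 with the mimic, and none passed the threshold by limma with all libraries. H2ac18 ran from 6390 through 8166 to 10809.9 normalized counts in vehicle and from 3733 through 6193 to 7884 in Str let-7f, and was 6600, 5850, 3698, 4741 and 6049 in 2x Str let-7f pools. Of the 2x Str let-7f pools 4 of 5 were below every vehicle pool, as were 4 of 8 Str let-7f pools. The log2 fold change was -0.44 ± 0.16 (SE; limma adjusted p = 0.16) and -0.60 ± 0.18 (adjusted p = 0.0882). H2ac24 was 2362, 2588 and 3923 at the lowest, median and highest in vehicle, 1803, 2228 and 3285 in Str let-7f, and 1922, 2494, 1559, 1725 and 2258 in 2x Str let-7f pools. Of these, 6 of 8 and 4 of 5 were below every vehicle pool, and the others overlapped. Its fold change was -0.24 ± 0.14 and -0.48 ± 0.15 (limma adjusted p = 0.419 and 0.126), and -0.16 in Str let-7f without vehicle replicate 5. For 2x Str let-7f, H2ac18 passed the threshold with DESeq2 (DESeq2 adjusted p = 0.0447), and H2ac18 and H2ac24 both passed in limma with array weights and with the replicate number as a block. Without vehicle replicate 5 the limma fold change of H2ac18 was -0.36 and -0.53. H2ac7, which has no private coding words, differed by -0.27 ± 0.12 and -0.33 ± 0.13 (limma adjusted p = 0.26 and 0.269).

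H2A genes of lower level did not follow one direction, and 10 of 15 H2A genes were below 0 in Str let-7f and 9 at 2x Str let-7f. Without vehicle replicate 5 these were 6 of 14 and 7 of 14, and the class median turned from -0.07 to 0.03 in Str let-7f and moved from -0.27 to -0.06 in 2x Str let-7f. H2ac25, chosen after its values were seen as 1 of the 2 genes with an unadjusted p under 0.05 on the high side, was 0.63 ± 0.26 (SE) in Str let-7f (limma adjusted p = 0.227) and 0.39 ± 0.29 at 2x Str let-7f. H2ac1, the H2A gene of the male germ line and oocyte, was at 0 in the lowest vehicle pool with a median of 8.03 normalized counts in vehicle and 19.3 in Str let-7f pools. At 2x Str let-7f it was 6.00, 15.4, 27.0, 5.16 and 3.90, and the groups overlapped (limma adjusted p = 0.381 and 0.829).

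H2bc12 fell in 2x Str let-7f pools. It was 138 at the lowest, 213 at the median and 277 at the highest in vehicle, 92.7, 187 and 238 in Str let-7f, and 140, 87.5, 99.5, 119 and 103 normalized counts in 2x Str let-7f pools. In 4 of 5 of these pools it was below every vehicle pool, and the remaining pool, at 140, was just above the lowest vehicle pool. The log2 fold change was -0.96 ± 0.24 (SE; limma adjusted p = 0.04) for 2x Str let-7f and -0.30 ± 0.21 (adjusted p = 0.548) for Str let-7f. The call was near the threshold: leaving out 1 of the 12 libraries compared ended it in 9 cases, with a fold change of -0.88 to -1.06, and without vehicle replicate 5 it was -0.96 (adjusted p = 0.0621). Fits to libraries over 5 M reads or to those 2 groups alone also ended it (adjusted p = 0.289 and 0.0504), as did the replicate number as a block (-1.09, limma adjusted p = 0.0966).

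Most other H2B genes also had fold changes below 0, and none passed. H2bc6 was 844, 1002 and 1630 at the lowest, median and highest in vehicle, 621, 772 and 1177 in Str let-7f, and 714, 927, 608, 976 and 782 in 2x Str let-7f pools. The groups overlapped, with a log2 fold change of -0.41 ± 0.16 (SE) and -0.43 ± 0.18 (limma adjusted p = 0.197 and 0.293). H2bc3 differed by -0.55 ± 0.20 and -0.43 ± 0.22 (limma adjusted p = 0.162 and 0.437), with 6 of 8 Str let-7f pools below every vehicle pool. H2bc4 differed by -0.23 ± 0.19 and -0.35 ± 0.22, and by -0.11 in Str let-7f without vehicle replicate 5. H2bc8 differed by -0.34 ± 0.18 and -0.45 ± 0.20, and H2bc7, named after its values were seen, by -0.31 ± 0.24 and -0.60 ± 0.27. Of 13 H2B genes, 10 were below 0 in Str let-7f and 12 at 2x Str let-7f, and 9 and 12 without vehicle replicate 5.

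**Figure D5:**
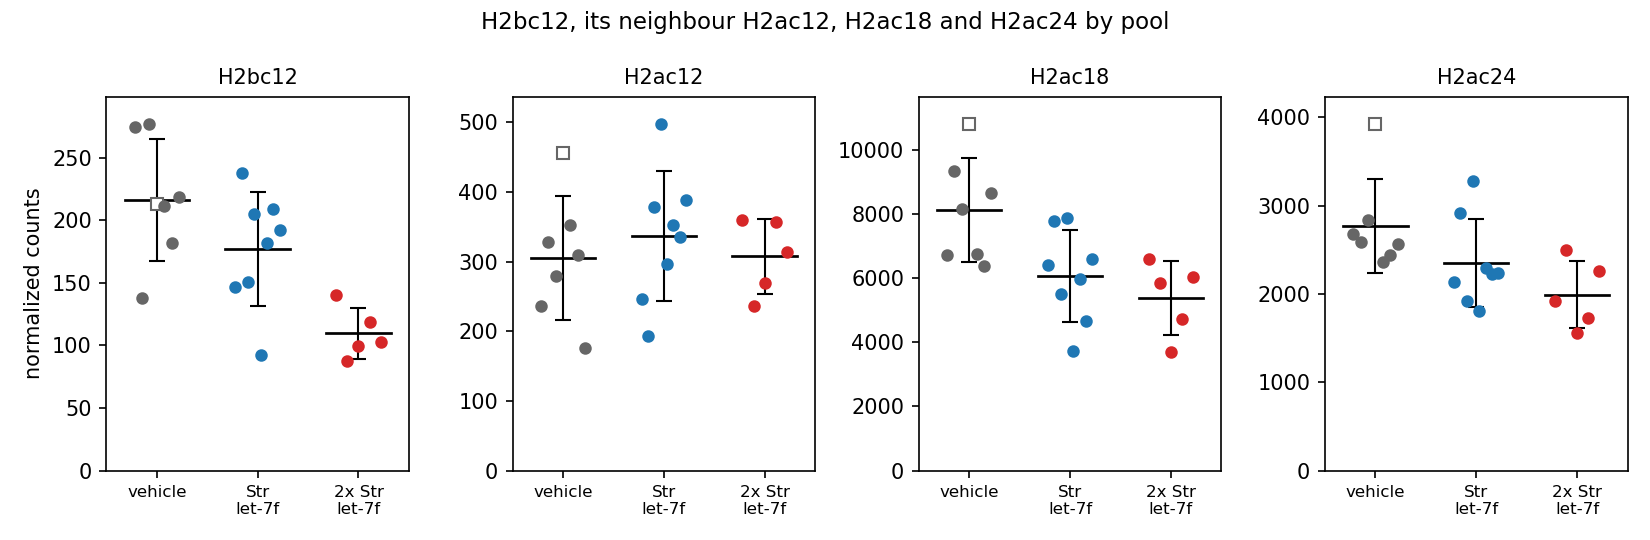
Normalized counts of H2bc12, of its neighbour H2ac12 and of H2ac18 and H2ac24, 1 point per pool, with the group mean (line) and SD (bars); the open square is vehicle replicate 5. H2bc12 averaged 216 in vehicle and 110 in 2x Str let-7f pools, while H2ac12 averaged 305 and 307.

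H2A and H2B genes often stand back to back and share the DNA between their starts. There were 6 such pairs of neighbours with starts facing away from each other. In the RefSeq windows of 300 bases around the starts, those of H2ac12 and H2bc12 shared 277 bases. The H2bc12 window is shown because H2bc12 was called at 2x Str let-7f and H2ac12 was not. It covers chr13:22035571-22035870 of GRCm38.p6 on the + strand, from 250 bases before to 50 after the start, with each CCAAT and TATAAA, on either strand, in capitals.
H2bc12: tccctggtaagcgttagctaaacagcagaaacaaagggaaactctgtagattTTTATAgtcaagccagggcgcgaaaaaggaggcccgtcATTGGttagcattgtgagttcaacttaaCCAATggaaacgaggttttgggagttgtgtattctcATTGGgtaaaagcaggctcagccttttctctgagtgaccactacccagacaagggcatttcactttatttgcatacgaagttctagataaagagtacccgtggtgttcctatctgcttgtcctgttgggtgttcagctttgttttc
The H2bc12 side was called lower with 2x Str let-7f, near the threshold as given above. The H2ac12 side, at 305 ± 89.1 normalized counts (SD) in vehicle and 307 ± 53.9 in 2x Str let-7f pools, had a fold change of 0.04 ± 0.23 (SE; limma adjusted p = 0.964), or 0.15 without vehicle replicate 5. The H2B gene had the lower fold change in 4 of 6 pairs for Str let-7f and in 5 of 6 for 2x Str let-7f, with and without vehicle replicate 5. The difference within pairs was not tested. Private coding words made up only 4.56% for H2bc12 and 4.20% for H2ac12, so the level of each is uncertain.

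CCAAT, the letters bound by the factor NF-Y, was in 43 of 48 histone windows with a RefSeq sequence (89.6%) against 37.9% of 27025 windows of all genes, both strands counted. It was in 3 of 8 H4 windows, and in all 6 of H1, 14 of H2A, 10 of H2B and 10 of H3. The TATA letters TATAAA were in 29 of 48 histone windows (60.4%) and in 14.2% of all windows. The windows are not all separate: those of back-to-back H2A and H2B pairs shared 252 to 279 of 300 bases. The same letters could thus be counted for both genes of a pair.

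H3 genes had a median log2 fold change of -0.12 in Str let-7f and -0.24 at 2x Str let-7f, or -0.04 and -0.15 without vehicle replicate 5. H3c2 was 1570, 1855 and 2763 at the lowest, median and highest in vehicle, 1212, 1772 and 2190 in Str let-7f, and 1944, 1560, 1251, 1565 and 1643 in 2x Str let-7f pools. Its log2 fold change was -0.16 ± 0.14 (SE) and -0.26 ± 0.16 (limma adjusted p = 0.655 and 0.533), and -0.07 and -0.17 without vehicle replicate 5; the groups overlapped. H3c3 had the smallest p of the class for 2x Str let-7f (-0.50 ± 0.18, limma adjusted p = 0.22; -0.25 ± 0.16 in Str let-7f). H3c15, with a coding sequence identical to that of H3c14, differed by -0.29 ± 0.15 and -0.43 ± 0.17, and H3c13 by -0.20 ± 0.15 and -0.26 ± 0.17. Of 12 H3 genes, 10 were below 0 in each comparison, and 7 and 9 without vehicle replicate 5.

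H4 was the class with the lowest summed level. H4c8 was 99.0, 155 and 271 at the lowest, median and highest in vehicle, 57.4, 107 and 281 in Str let-7f, and 130, 74.6, 79.2, 176 and 156 normalized counts in 2x Str let-7f pools. The groups overlapped, with a log2 fold change of -0.50 ± 0.31 (SE) and -0.38 ± 0.35 (limma adjusted p = 0.479 and 0.725), and -0.24 in 2x Str let-7f without vehicle replicate 5. H4c1 differed by -0.51 ± 0.33 and -0.56 ± 0.37, and H4c16 by 0.33 ± 0.29 and 0.05 ± 0.33, the last 0.20 without that pool. H4c18, whose coding sequence is identical to that of H4c17, averaged 39.1 ± 22.8 normalized counts (SD) in vehicle, 20.2 ± 17.5 in Str let-7f and 17.4 ± 12.3 at 2x Str let-7f (limma adjusted p = 0.438 and 0.479). The H4 class median was -0.09 in Str let-7f and -0.41 at 2x Str let-7f, and 0.09 and -0.20 without vehicle replicate 5.

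The classes varied together from pool to pool. After removing group means, log2 sums over the 20 libraries correlated with a Pearson r of 0.86 between H2A and H2B, 0.84 between H1 and H2B, 0.83 between H1 and H3 and 0.76 between H1 and H2A. Without vehicle replicate 5 these were 0.82, 0.78, 0.76 and 0.68. H4 followed H1 and H3 little, with r of 0.18 and 0.19, and followed H2A with 0.49. Without vehicle replicate 5 these were -0.12, -0.10 and 0.32. Between depth and the class sums r was 0.09 to 0.17, and -0.09 to 0.00 without that pool. The classes share each library's scaling and RNA quality, so these values are descriptions.

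Of 9057 genes averaging at least 100 normalized counts outside the family, H3f3b, the gene for the replication-independent histone H3.3, followed the summed histone level most closely (r = 0.75 over 20 libraries, 0.66 without vehicle replicate 5). The next were Rplp0 (0.72), a ribosomal stalk protein, Aldoa (0.70), a glycolytic enzyme, Vapb (0.70), S100a10 (0.69), Rnaset2b (0.69), Pars2 (0.69) and Sdhaf2 (0.67). Among the lowest were Uvrag (-0.74), Gm48401 (-0.72) and Prrc2c (-0.68). Group means were removed first, so these values describe pools within groups and not differences between groups. They are the extremes of 9057 correlations over 20 libraries, picked by rank and not tested.

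Of the histone variants made outside S phase, 2 rose. H3f3b was 3051, 3230 and 3851 at the lowest, median and highest in vehicle, 3717, 4158 and 4859 in Str let-7f, and 4416, 4515, 4157, 4364 and 4098 in 2x Str let-7f pools. All 5 2x Str let-7f pools and 6 of 8 Str let-7f pools were above every vehicle pool. H3f3b rose in both comparisons (0.37 ± 0.08, SE, limma adjusted p = 0.0107; 0.40 ± 0.09, adjusted p = 0.0204). With libraries over 5 M reads alone neither call held (adjusted p = 0.0653 and 0.252). H1f0, the linker histone of differentiated cells, rose in Str let-7f (0.88 ± 0.19, limma adjusted p = 0.0102) from 277 ± 95.6 normalized counts (SD) in vehicle, and was 0.66 ± 0.21 in 2x Str let-7f (adjusted p = 0.133). H3f3a, the other H3.3 gene, differed by 0.04 ± 0.13 and -0.08 ± 0.15, and H2az1, which encodes H2A.Z, by -0.17 ± 0.10 and -0.07 ± 0.11. Of 11 variant genes tested, 2 rose and 0 fell in Str let-7f and 1 rose and 0 fell at 2x Str let-7f. Over all genes tested, 1.84% and 1.23% were called higher and 0.796% and 0.664% lower.

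Among the genes that make and remove histone mRNA, 1 passed the test. Slbp was 971, 1174 and 1530 at the lowest, median and highest in vehicle, 798, 1315 and 1799 in Str let-7f, and 1276, 937, 927, 723 and 1183 in 2x Str let-7f pools. The groups overlapped (0.02 ± 0.16 and -0.29 ± 0.19, SE; limma adjusted p = 0.981 and 0.555), and the Str let-7f value was 0.05 without vehicle replicate 5. Of 24 genes of histone mRNA 3′ end processing, 0 passed in Str let-7f and 1 fell at 2x Str let-7f: Zfp473, the zinc finger protein of the U7 particle that cuts histone pre-mRNA (-1.43 ± 0.37, from 197 ± 77.9 to 72.0 ± 30.9 normalized counts, SD; limma adjusted p = 0.048; -0.71 ± 0.33 in Str let-7f). Leaving out 1 library ended the Zfp473 call in 9 of 12 cases. Npat, the coactivator of histone gene transcription, differed by -0.09 ± 0.13 and -0.12 ± 0.15, and Casp8ap2, another part of the histone locus body, by -0.27 ± 0.13 and -0.08 ± 0.15. Of 18 genes of the histone locus body and of histone gene transcription and of 16 genes of histone mRNA translation and decay, 0 passed in either comparison. Over all genes tested, 2.63% and 1.89% passed in either direction, and 0.796% and 0.664% were called lower.

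Of 26 histone chaperones tested, 1 fell in Str let-7f and 0 at 2x Str let-7f. The 1 was Hjurp, the chaperone of centromeric CENP-A, at 2008 ± 332 normalized counts (SD) in vehicle (-0.55 ± 0.15, SE, limma adjusted p = 0.0459; -0.31 ± 0.17 in 2x Str let-7f). Leaving out 1 library ended that call in 13 of 15 cases, vehicle replicate 5 among them (adjusted p = 0.0689). Fold changes of the 26 chaperones were below 0 for 23 and 24, with medians of -0.14 and -0.18, and for 20 and 24 without vehicle replicate 5. Among 46 genes of DNA replication and S phase, 0 passed in either comparison, with 33 and 38 below 0 and medians of -0.12 and -0.19. Without vehicle replicate 5, 32 and 37 of these were below 0. Over all genes 51.8% and 50.7% were below 0 with all libraries. Among 24 cyclins and cell cycle kinases and their inhibitors, Cdc25b rose in both (1.02 ± 0.24, limma adjusted p = 0.0194; 1.34 ± 0.27, adjusted p = 0.00989), and Cdkn1a, the inhibitor p21, rose in Str let-7f (0.74 ± 0.19, limma adjusted p = 0.0324; 0.77 ± 0.21, adjusted p = 0.0613 in 2x Str let-7f, and 0.86, limma adjusted p = 0.042 there without vehicle replicate 5). Over all genes tested, 1.84% and 1.23% were called higher and 0.796% and 0.664% lower. A list of 21 structured or non-polyadenylated noncoding RNAs had 0 members among the genes listed.

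Markers of 1 embryonic cell type moved with the groups. Of 9 markers of primitive endoderm, the inner cell layer facing the cavity, 6 fell in Str let-7f and 4 at 2x Str let-7f, or 6 and 3 without vehicle replicate 5. Of all genes tested, 0.796% and 0.664% were called lower with all libraries. The summed level of the 9 markers was 27483 to 36645 normalized counts in vehicle, 16103 to 27413 in Str let-7f and 16759 to 26163 at 2x Str let-7f. Every mimic pool was thus below every vehicle pool, though the highest Str let-7f pool was only just below the lowest vehicle pool. Of 10 trophectoderm markers and of 8 epiblast markers tested, 0 passed in either comparison by limma, and their summed levels overlapped between all groups. Of 6 oocyte markers tested 1 fell in Str let-7f (Kpna7; without vehicle replicate 5 there were 5 tested and 0 called), with a summed level of 61.5 to 194 in vehicle, 44.3 to 147 in Str let-7f and 46.3 to 114 at 2x Str let-7f. Markers of cumulus cells (3 of 14 tested, summed level 67.3 to 185 in vehicle) and of sperm and testis (2 of 12 tested, 1526 to 2912 in vehicle) had 0 calls. What part these levels have in the histone values was not tested.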

How the data were processed

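Total RNA, depleted of ribosomal RNA, was sequenced from 20 pools of 10 blastocysts. The deposited table holds normalized counts, a signal made by the authors by dividing counts by a size factor per library. Per the submitters' processing notes, Trimmomatic 0.39, kallisto 0.50.1, FastQC 0.12.1, MultiQC 1.28, DESeq2 1.48.2 and GRCm39 were used; their settings are not given in the sources used here. Whole reads were recovered from the deposited counts: 100% of values came out whole within 0.01. Recovered totals were 1.54 to 58.8 M reads per library, so counting error differs between libraries, and the row without a gene name held 0.0286% to 0.0618%.

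Genes with at least 10 normalized counts in at least 5 libraries (15068) were tested with limma 3.58.1 in R 4.3.3, two-sided, on log2(value + 1), with 3 group means over 20 libraries, a trended prior and Benjamini-Hochberg adjustment at 0.05; the fit was tested on simulated data. Alternatives used another pseudocount or filter, TMM, edgeR 4.0.16, DESeq2 1.42.0, array weights, deep libraries, 2 groups alone, a replicate block and leaving out each library. On recovered reads edgeR called 417 and 270 genes for Str let-7f and 2x Str let-7f against vehicle, and DESeq2 767 and 621. Members and gene lists were chosen with earlier results of these data known. Named genes were the 3 highest members of each class, members past the threshold, those with the smallest p of each class and H2ac1 and H1f6 as germline members; of list genes short of the threshold, Slbp, Npat, Casp8ap2, H3f3a and H2az1 are named and the others are given as counts. Transcript sequences came from GENCODE M21 and promoters from RefSeq, GRCm38.p6, and were used for names and sequences only. Of 59 pairs of libraries in a group, none agreed within sampling noise (lowest chi-square per degree of freedom 17.8). Whether the pools stem from different mothers or different days of injection is not in the labels; the p-values therefore cover pool-to-pool spread only, which may be technical.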

Additional observations from a re-analysis of the deposited data

Results flagged for a closer look

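In vehicle replicate 5 the summed level lay far above the other 6 vehicle pools in 4 of 5 classes and over all members. In normalized counts it was 26389 for H1 (next highest vehicle pool 21719), 31330 for H2A (22932), 6035 for H2B (4081), 12603 for H3 (9525) and 77382 for all members (57410). Among single genes the same pool stood apart for H1f3 at 7955 (next 6594), H2ac7 at 11508 (8148), H2ac24 at 3923 (2836), H2bc6 at 1630.0 (1164), H3c2 at 2763 (1942) and H4c8 at 271 (168). Str let-7f replicate 2 stood apart for H4c8 at 281 (next 132). These 12 values come from 87 sets of pools examined, of which chance would single out about 1 in 20, and 11 of the 12 are the 1 vehicle pool. The sets are nested, as the sums hold the single genes, so those 11 values are not separate events.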

How the results depend on the processing

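For Str let-7f against vehicle 397 genes were called, against 767 with DESeq2, 617 with array weights and 201 with libraries over 5 M reads. For 2x Str let-7f 285 were called, against 621, 647 and 68, and 144 to 273 when 1 library was left out. Between the mimic groups 0 were called, against 1 with edgeR, 11 with DESeq2 and 0 to 1 with 1 library left out. Of histone genes 1 was called for 2x Str let-7f, against 2 with DESeq2, 3 with array weights, 0 with libraries over 5 M reads, 0 with only those 2 groups and 0 to 1 with 1 library left out. The median histone log2 fold change stayed below 0 with 1 library left out (-0.20 to -0.0135 and -0.35 to -0.17), as did the summed level (-0.19 to -0.0739 and -0.24 to -0.14). The H4 class has the lowest level and so the fewest reads, and near-identical copies limit single core histone genes. The cause of these shifts was not tested.

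Among genes named with a test result, values that changed sign were all uncalled. Other members also turned and are not listed here. For Str let-7f these were H1f2 with TMM (-0.00147) and array weights (-0.0188), H3f3a with array weights (-0.10) and libraries over 5 M reads (-0.0844), and Slbp with TMM (-0.000504) and array weights (-0.00558). For 2x Str let-7f, edgeR and DESeq2 turned H2ac1 (-0.24 and -0.24), H4c16 (-0.062 and -0.0643) and H2ac12 (-0.0112 and -0.00523). Array weights turned H4c16 (-0.0962) and H2ac12 (-0.0915). Libraries over 5 M reads turned H1f2 (0.0451), H1f4 (0.0458), H4c16 (-0.22) and H2ac12 (-0.0089). With 1 library left out, Str let-7f values ran over 0 for H1f2 (-0.0667 to 0.0534), H1f4 (-0.0264 to 0.0749), H3f3a (-0.0211 to 0.11) and Slbp (-0.0637 to 0.10). For 2x Str let-7f they did so for H1f2 (-0.0745 to 0.0692), H1f4 (-0.0481 to 0.0318), H2ac12 (-0.0784 to 0.15), H2az1 (-0.18 to 0.0016) and H4c16 (-0.16 to 0.20).

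Replicate numbers were not treated as pairing in the main fit, and the labels do not say whether they pair the samples. Deviations of 14 same-numbered pairs correlated with r of -0.0066 to 0.0922, 0 of them over 0.1. Their median was 0.051, against -0.0077 for pairs with different numbers. Of 16 libraries, 4 correlated best with their own number. These correlations are small, and a weak pairing cannot be told from them. With the replicate number as a block, 293 and 277 genes were called for Str let-7f and 2x Str let-7f against vehicle. Of histone genes 2 were called for 2x Str let-7f (H2ac18 and H2ac24), and H2bc12 was not (-1.09, limma adjusted p = 0.0966). Among genes named with a test result, the block turned H2ac12 in Str let-7f (-0.0346). In 2x Str let-7f it turned H1f2 (0.000608), H1f4 (0.00227), H4c16 (-0.13) and H2ac12 (-0.11).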
